A study of Gallus gallus with 8 samples.

Results

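The vacuolar proton pump (V-ATPase) is described here in the hypothalamus of growing chickens through every arrayed cDNA whose annotated gene symbol starts with ATP6V. The array annotation held 15 such genes among 6428 named genes, printed as 27 spots of 26 cDNA clones, a clone being 1 sequence accession. After dim clones were left out, 18 clones of 12 genes remained: 7 genes of the soluble V1 sector and 5 of the membrane V0 sector. The pump was chosen by the measured line differences of ATP6V1B2 at week 1 and of ATP6V1A at week 3. Those differences are therefore given as descriptions, with no test, and so are the values of every other subunit at the same 2 ages.

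The birds were of the fat line (FL) or the lean line (LL), bred in opposite directions for abdominal fat, and all were raised alike as broilers with no further treatment. Hypothalamic RNA was taken at 1, 3, 5 and 7 weeks of age, with 4 biological replicates per line and age and 1 array for each, 32 arrays in all. The labels give neither the sex of the birds nor any pooling of animals, so p-values measure only the spread between these arrays. As described for the series, the sample carried the dye Cy3, and a pool of equal parts of all the RNAs carried Cy5. Values are log2(sample/pool), so 0 means the level of the pool, and a line difference is FL minus LL. With bulk tissue, fewer cells of a type and less RNA per cell cannot be told apart.

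The V-ATPase is a rotary pump that spends ATP to drive protons into lysosomes, endosomes, the Golgi and synaptic vesicles. In V1, the A and B subunits form the head that binds and hydrolyses ATP, D is in the central stalk, and C, E and G belong to the stators that hold the head in place. In V0, a ring of proteolipids turns against the a subunit, d couples the ring to the central stalk, and e is a small membrane subunit. Neurons depend on the pump because transmitters are loaded into synaptic vesicles by the proton gradient.

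Signal and quality differed between the arrays. The median Cy3 signal was 2.57 to 8.45 times the local background, and 2117 to 11705 of 17708 clones stood above background, a level set by empty spots. Before normalization the median log2(Cy3/Cy5) was between -0.98 and 1.72. It was below 0 on 3 arrays: FL week 1 replicate 4 (-0.49), FL week 7 replicate 3 (-0.28) and LL week 3 replicate 1 (-0.98). The same 3 arrays had median correlations with the other arrays of -0.04, -0.05 and -0.16, and the lowest correlation between any 2 arrays was -0.39 over the clones tested. With the other arrays of the same group, these 3 had medians of 0.33, -0.13 and -0.18, in that order. The labels state the dyes for each sample, which covers 4 arrays, and the direction of these arrays was kept. Whether the stated dyes hold for each single array was not tested. Some of the results that rest on these 3 arrays are given without them as well. Of the hypothalamic marker genes, only 2 of 16 were on the array and 1 was tested. This was POMC, the precursor of melanocyte-stimulating hormone, which was above background on 27 of 32 arrays. Of the anterior pituitary genes tested, GH and PRL were above background on 32 arrays, POU1F1 on 23, FSHB on 22 and CGA on 20. How much pituitary the samples held was not tested.

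**Figure D1:**
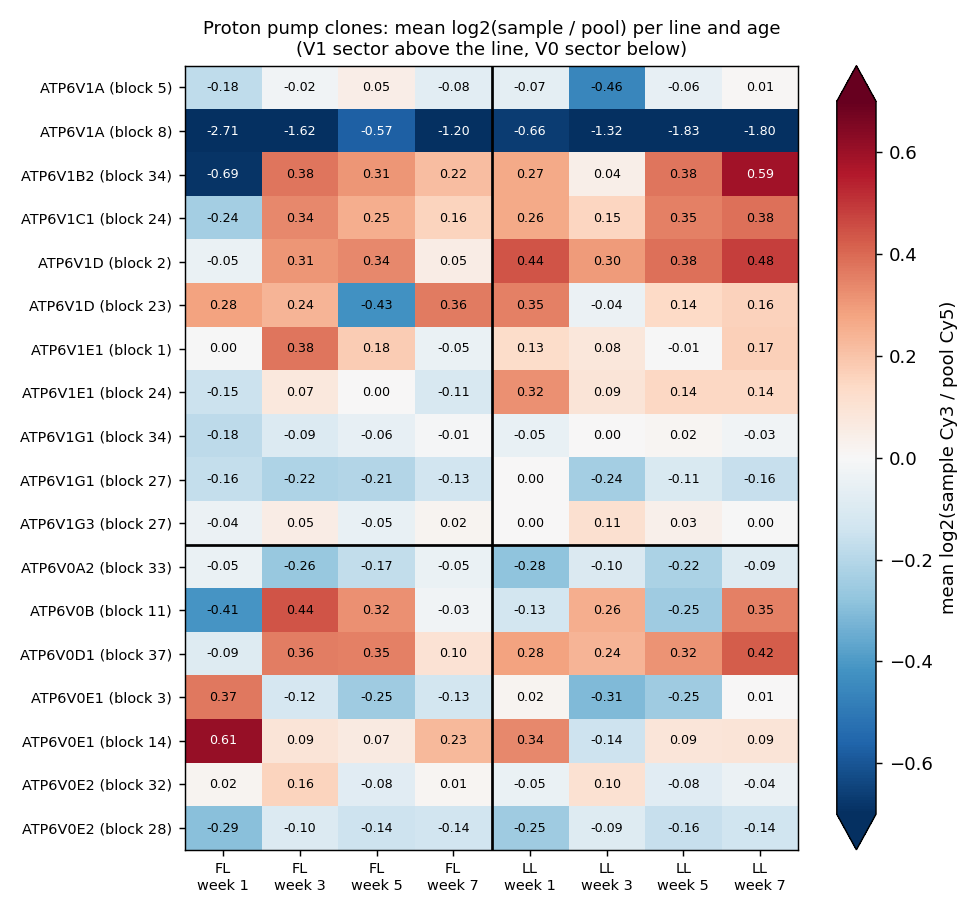
Mean log2(sample/pool) of the 18 proton pump clones (rows, V1 sector above the horizontal line and V0 below, with the print block of the clone in brackets) in the fat line and lean line at each age (columns, 4 arrays each at most). ATP6V1B2 was at -0.69 in FL at week 1 and between 0.04 and 0.59 in the other 7 groups, while the ATP6V1A means in block 8 lay between -2.71 and -0.57.

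ATP6V1B2 encodes the B subunit isoform found in brain and most other tissues, which binds nucleotide beside the catalytic A subunit. Its level was read from the spot in block 34, sub-row 6, column 12. Another spot of the same accession, in block 24, carried a satisfactory letter on 14 of 32 arrays and was above background on 0 of them, and it was left out. The block 34 spot was above background on 29 of 32 arrays, with 3 of 4 in FL and 4 of 4 in LL at week 1. In FL the arrays read -0.48, -1.06, -0.47 and -0.73 at week 1. In LL they read 0.43, 0.20, 0.08 and 0.35 at the same age. No FL value reached the LL range at week 1, where the difference was -0.95 ± 0.22 (SE, n = 4 arrays each).

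At week 3, ATP6V1B2 read 0.11, 0.30, 0.40 and 0.69 in FL, against -0.52, -0.09, 0.27 and 0.51 in LL. At week 5 it read 0.19, 0.21, 0.31 and 0.52 in FL, against 0.34, 0.15, 0.38 and 0.63 in LL. At week 7 it read 0.51, 0.42, -0.63 and 0.55 in FL, against 0.25, 0.62, 1.00 and 0.48 in LL. The lines overlapped at these 3 ages, and the low FL value at week 7 came from replicate 3. Ordered by group mean, FL week 1 was lowest (-0.69 ± 0.28, SD), then LL week 3, FL week 7, LL week 1, FL week 5, LL week 5 and FL week 3, with LL week 7 highest (0.59 ± 0.32, SD). The gap between FL week 1 and LL week 3, 0.73, was larger than either SD, and no other pair of neighbours in this order differed by more than its larger SD.

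**Figure D2:**
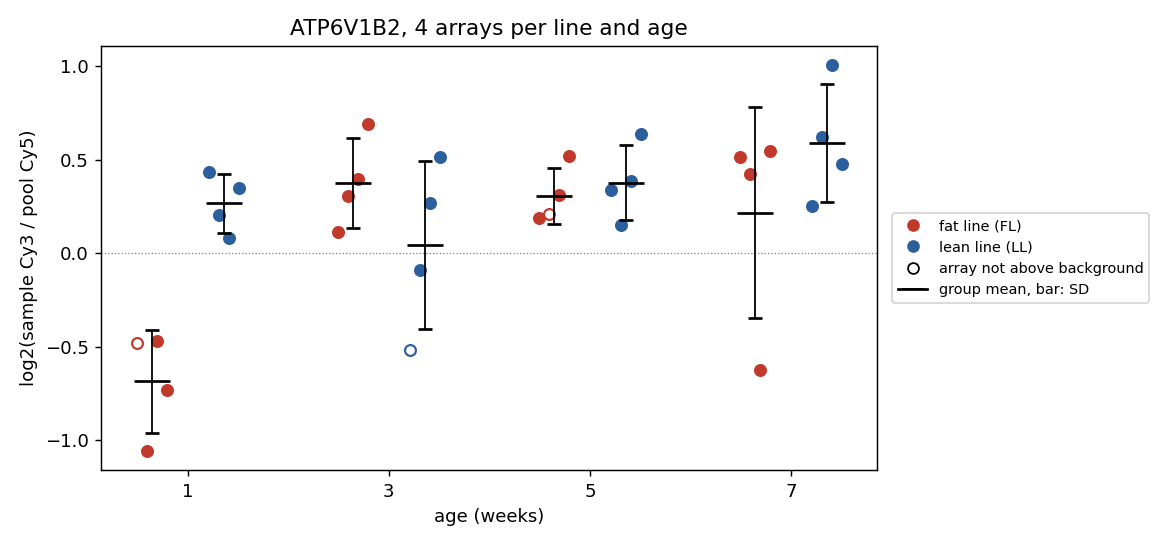
log2(sample/pool) of ATP6V1B2 on each array by age, with the fat line left of the lean line; open circles are arrays on which the spot was not above background, and bars are the group mean and SD (n = 4). The 4 FL week 1 arrays lie between -1.06 and -0.47, below all LL week 1 arrays, and FL week 7 replicate 3 lies at -0.63.

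With both lines averaged, ATP6V1B2 rose by week 7 over week 1, by 0.61 ± 0.16 (SE), a 1.53-fold higher level (limma, Benjamini-Hochberg adjusted p = 0.0298). The level was above the week 1 mean of the same line on 7 of 8 week 7 arrays. It was the 1 ATP6V clone of 18 that passed this test, and 2.79% of all 7514 clones tested passed it (210 clones, of which 127, or 1.69% of all, were higher). The test shares the FL week 1 arrays with the difference that drew attention to the gene, so its p-value is no separate support for that difference. Within the lines, week 7 minus week 1 was 0.90 ± 0.22 (SE) in FL and 0.32 ± 0.22 (SE) in LL, given with no test. The call was lost in a fit of the week 1 and week 7 arrays alone (adjusted p = 0.129) and in 8 of 32 fits that left out 1 array, with adjusted p-values up to 0.0871. Those 8 were FL week 1 replicate 2, FL week 7 replicates 1, 2 and 4, LL week 1 replicates 3 and 4, and LL week 7 replicates 2 and 3. Without FL week 7 replicate 3 the difference was 0.75 (adjusted p = 0.000963).

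At the shorter steps ATP6V1B2 passed no test. Week 3 minus week 1 was 0.42 ± 0.16 (SE, adjusted p = 0.269 by limma), week 5 minus week 3 was 0.13 and week 7 minus week 5 was 0.06. Within the lines, week 3 minus week 1 differed in sign, 1.06 ± 0.22 (SE) in FL and -0.22 ± 0.22 (SE) in LL. Without the 3 arrays that stood apart, a setting chosen after the data were seen, the averaged week 3 difference was 0.51 (limma, adjusted p = 0.0467). In that setting 58 of all clones passed, against 11 in the main fit. The test shares FL week 1 arrays with the difference that drew attention to the gene, so its p-value is no separate support.

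ATP6V1A encodes the catalytic A subunit, which hydrolyses ATP, and 2 of its clones were tested. The clone in block 5, sub-row 1, column 13 was above background on all 32 arrays. At week 3 it read 0.02, -0.20, 0.16 and -0.09 in FL, against -1.08, -0.35, -0.12 and -0.28 in LL, a difference of 0.44 ± 0.15 (SE). The LL value of -1.08 was replicate 1, and without that array the difference was 0.23. It was 0.15 from the authors' deposited log2 ratios, 0.18 with arrays weighted by quality and 0.26 without background subtraction. The ranges overlapped, since FL replicate 2 lay below LL replicate 3.

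At week 1 this clone of ATP6V1A read -0.23, 0.12, -0.30 and -0.31 in FL, against 0.10, 0.17, -0.20 and -0.33 in LL. At week 5 it read -0.01, 0.15, 0.06 and -0.01 in FL, against -0.02, -0.09, -0.12 and 0.00 in LL. At week 7 it read -0.15, 0.07, -0.26 and 0.04 in FL, against -0.11, 0.11, -0.04 and 0.08 in LL. The lines overlapped at each of these ages, and no 2 neighbours in the order of its group means, LL week 3 lowest and FL week 5 highest, differed by more than their larger SD. Week 5 minus week 3 was 0.24 ± 0.10 (SE), with all 8 week 5 arrays above the week 3 mean of their line, and did not pass (limma, adjusted p = 0.996). It shares the LL week 3 arrays, replicate 1 at -1.08 among them, with the line difference that drew attention to the gene.

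The other clone of ATP6V1A, in block 8, sub-row 15, column 3, was above background on 18 of 32 arrays. Most of its values lay near -2, although the pool was made of equal parts of the same RNAs. In FL at week 1 it was not above background on any array (-2.08, -2.78, -3.32 and -2.64), against 1.69, 0.88, -2.35 and -2.87 in LL, where it was above background on all 4. Background was set array by array: FL replicate 1 had more raw Cy3 per pixel (2260) than LL replicate 4 (1499). Taken as a bound on the Cy3 channel with all arrays, LL was at least 2.01-fold higher than FL at week 1. This bound is open to dye bias and array brightness. Median Cy3 over background averaged 3.96 on the FL week 1 arrays and 6.05 on those of LL. LL replicates 1 and 2 carried the bound, since the other LL log ratios lay within the FL range. It was 1.27-fold without LL replicate 1, 1.41-fold without LL replicate 2 and 3.48-fold without LL replicate 4. At week 3 it read -1.74, -0.98, -1.99 and -1.77 in FL, against -1.90, 0.68, -2.14 and -1.91 in LL.

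At week 5 the block 8 clone of ATP6V1A read -1.79, -1.62, 2.64 and -1.51 in FL, against -1.82, -2.14, -1.94 and -1.41 in LL. At week 7 it read -1.74, -0.87, -0.65 and -1.55 in FL, against -1.92, -1.82, -1.66 and -1.81 in LL. Single arrays far above the rest (LL week 1 replicates 1 and 2, LL week 3 replicate 2, FL week 5 replicate 3) set its group means and SDs, which reached 2.28 in LL week 1. The line difference at week 3 was -0.30 ± 0.83 (SE), and it was 0.36 without LL week 3 replicate 2. Over the 8 group means the 2 clones of this gene had r = 0.19, and neither the reason for the readings near -2 nor for the single high arrays was tested.

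**Figure D3:**
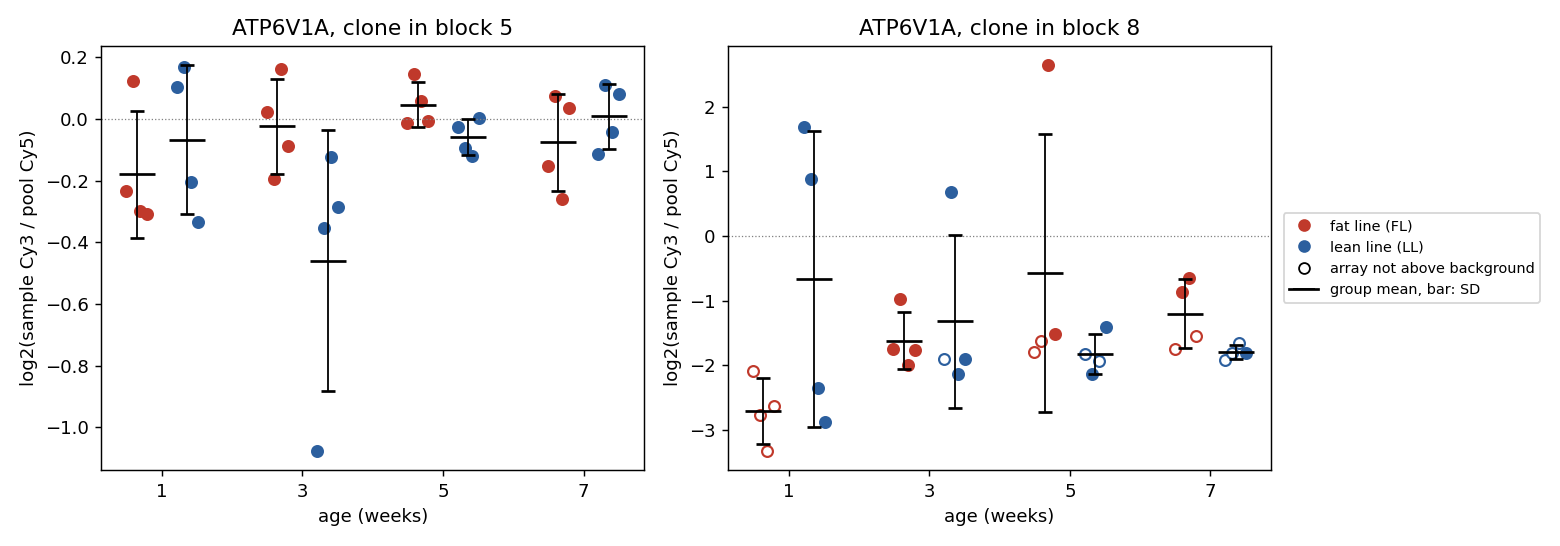
log2(sample/pool) of the 2 ATP6V1A clones on each array by age, with the fat line left of the lean line; open circles are arrays not above background, and bars are the group mean and SD (n = 4). In block 5 the LL week 3 group is pulled down by 1 array at -1.08, and in block 8 most arrays lie near -2 with single arrays as high as 2.64. The vertical scales of the panels differ.

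Among the other V1 subunits, ATP6V1C1 (the C subunit, which is released when V1 detaches from V0) had a pattern close to that of ATP6V1B2, with r = 0.98 over the 8 group means. These means include FL week 1, part of the difference by which ATP6V1B2 was chosen. Outside the pump, 126 of 3578 genes exceeded 0.90 with ATP6V1B2. ATP6V1C1 read -0.36, 0.02, -0.19 and -0.42 in FL at week 1, against 0.25, 0.17, 0.26 and 0.38 in LL. This clone was above background on 22 of 32 arrays, with 2 of 4 in FL and 3 of 4 in LL at week 1. The lines did not overlap at that age, and the difference was -0.50 ± 0.17 (SE), or -0.44 without FL week 1 replicate 4. By week 7 over week 1, with the lines averaged, it was 0.26 ± 0.12 (SE) higher, which did not pass (limma, adjusted p = 0.232). Without FL week 7 replicate 3, where it read -0.55, the difference was 0.37 (adjusted p = 0.0183).

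ATP6V1D, the rotor shaft, had 2 tested clones, in blocks 2 and 23. The block 2 clone gave a line difference at week 1 of -0.49 ± 0.21 (SE, n = 3 arrays each), which was -0.26 without FL week 1 replicate 4. The block 23 clone was not above background on any FL week 1 array, and its difference there is not given. The stator subunit ATP6V1E1 had line differences at week 1 of -0.13 ± 0.12 (SE, block 1) and -0.47 ± 0.22 (SE, block 24). The 2 clones of ATP6V1G1, another stator subunit, stayed within -0.24 and 0.02 in their 8 group means. ATP6V1G3, whose counterpart in mammals is the kidney isoform of the G subunit, stayed within -0.05 and 0.11. None of these 7 clones passed any of the 6 tests between lines or ages.

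In the V0 sector, ATP6V0D1 is the d subunit that couples the proteolipid ring to the shaft. Its r with ATP6V1B2 was 0.92 over the 8 group means, FL week 1 among them. Such an r was not particular to the pump, since 126 of 3578 other genes exceeded 0.90 with ATP6V1B2. In FL at week 1 ATP6V0D1 read 0.13, -0.17, 0.00 and -0.32, against 0.10, 0.32, 0.24 and 0.48 in LL. At week 3 it read 0.35, 0.48, 0.25 and 0.35 in FL, against 0.10, 0.18, 0.29 and 0.38 in LL. The lowest values were thus in FL at week 1, and the lines overlapped at both ages. Its tightest group was FL at week 5, with 0.35, 0.34, 0.37 and 0.35, against 0.25, 0.35, 0.32 and 0.35 in LL. Its week 7 values were 0.41, 0.37, -0.65 and 0.28 in FL, against 0.32, 0.48, 0.36 and 0.54 in LL, with replicate 3 alone low in FL. Of the 18 clones it had the smallest p for the line difference at week 7, -0.32 ± 0.15 (SE, limma, adjusted p = 1.00), and without FL week 7 replicate 3 that difference was -0.07.

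ATP6V0B encodes the c″ proteolipid of the ring. Its tested clone, in block 11, varied strongly between arrays of 1 group. It read -0.06, -1.10, -0.51 and 0.01 in FL at week 1, against -0.47, 0.18, 0.36 and -0.58 in LL. Its week 3 values were 1.15, 0.52, 0.56 and -0.48 in FL, against 1.11, 0.00, 0.22 and -0.30 in LL. The lines overlapped widely at both ages. At week 5 it read 0.69, 0.43, -0.18 and 0.33 in FL, against -0.25, -0.58, 0.03 and -0.19 in LL. This line difference, 0.57 ± 0.35 (SE), had the smallest p at week 5 among the 18 clones and did not pass (limma, adjusted p = 1.00). Its week 7 values were 0.67, -0.29, -0.77 and 0.27 in FL, against 0.83, 0.27, -0.32 and 0.62 in LL.

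ATP6V0E1, one of the small e subunits, was highest in FL at week 1, where ATP6V1B2 was lowest. The rest of the order was not reversed: LL week 3, lowest in both tested ATP6V0E1 clones, was next to lowest for ATP6V1B2. Over the 8 group means these clones had r = -0.66 (block 14) and -0.64 (block 3) with ATP6V1B2, and 0.91 with each other. The clone in block 14 read 0.03, 1.32, 0.62 and 0.46 in FL at week 1, against 0.80, -0.09, 0.50 and 0.14 in LL. Its week 3 values were 0.15, -0.04, 0.15 and 0.11 in FL, against -0.60, 0.04, 0.06 and -0.07 in LL. The high single value at week 1 was FL replicate 2, on which the spot was not above background. It was above background on 21 of 32 arrays. At week 5 it read -0.05, 0.04, 0.33 and -0.07 in FL, against 0.11, 0.05, 0.14 and 0.04 in LL. Its week 7 values were 0.03, 0.22, 0.62 and 0.04 in FL, against 0.39, -0.11, 0.02 and 0.06 in LL. Group means were highest at week 1, in FL above LL, and the lines overlapped at every age.

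Averaged over the lines, the block 14 clone of ATP6V0E1 was -0.50 ± 0.14 (SE) at week 3 relative to week 1, with all 8 week 3 arrays below the week 1 mean of their line. The block 3 clone was -0.41 ± 0.15 (SE), with 7 of 7 arrays below. Neither passed (limma, adjusted p = 0.158 and 0.260). Without FL week 1 replicate 1 the block 14 difference was -0.59 and passed (adjusted p = 0.0353). Without FL week 1 replicate 2 the differences were -0.38 in block 14 and -0.26 in block 3. From the authors' deposited log2 ratios the block 14 difference was -0.10, and without background subtraction it was -0.17. At week 7 relative to week 1 the block 14 and block 3 clones were at -0.31 and -0.26, and neither passed (limma, adjusted p = 0.225 and 0.321). Without FL week 1 replicate 2 they were at -0.20 and -0.10. The block 14 clone was at -0.34 and passed with array weights (limma, adjusted p = 0.0418). Without background subtraction the block 3 clone was at -0.29 and passed (limma, adjusted p = 0.0370). Within the lines, week 7 minus week 1 in block 3 was -0.50 ± 0.21 (SE) in FL, with 3 values at week 1, and -0.01 ± 0.19 (SE) in LL. In block 14 it was -0.38 ± 0.20 (SE) in FL and -0.25 ± 0.20 (SE) in LL. These are given with no test.

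The remaining V0 clones passed no test. ATP6V0A2, the a subunit isoform known in mammals from the Golgi and endosomes, read -0.05, -0.18, -0.01 and 0.05 in FL at week 1, against -0.38, -0.10, -0.16 and -0.49 in LL. Its week 3 values were -0.17, -0.43, -0.23 and -0.22 in FL, against 0.03, -0.13, -0.13 and -0.18 in LL. The lines overlapped at both ages, and the higher mean was in FL at week 1 and in LL at week 3. This clone was above background on 17 of 32 arrays, and on 1 of 4 in FL at week 3. At week 5 it read -0.32, 0.03, -0.19 and -0.21 in FL, against -0.19, -0.23, -0.23 and -0.22 in LL. Its week 7 values were -0.09, -0.13, 0.20 and -0.16 in FL, against -0.07, -0.10, -0.15 and -0.03 in LL. Week 7 minus week 5, 0.13 ± 0.07 (SE), had the smallest p of the 18 clones and did not pass (limma, adjusted p = 1.00).

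ATP6V0E2, the other e subunit, in block 32, read -0.06, -0.10, 0.13 and 0.09 in FL at week 1, against -0.33, -0.15, 0.08 and 0.21 in LL. Its week 3 values were 0.03, 0.16, 0.44 and -0.01 in FL, against 0.20, 0.15, 0.00 and 0.06 in LL. The lines overlapped at both ages. At week 5 it read 0.13, -0.18, -0.13 and -0.13 in FL, against -0.12, -0.08, 0.02 and -0.14 in LL. Its week 7 values were -0.09, 0.06, 0.23 and -0.14 in FL, against 0.18, -0.28, 0.02 and -0.09 in LL. Week 5 minus week 3, -0.21 ± 0.08 (SE), had the smallest p of the 18 clones for that step, with all 8 week 5 arrays below the week 3 mean of their line (limma, adjusted p = 0.996).

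The other 8 clones were not tested because they were too seldom above background or too often flagged. They were both clones of ATP6V0A1 (in mammals the a subunit isoform of synaptic vesicles), the clones of ATP6V0A4 (in mammals a kidney isoform) and ATP6V0C (the main ring proteolipid), 2 of ATP6V0B and 1 each of ATP6V0D1 and ATP6V0E1. One ATP6V0A1 clone was flagged on all 32 arrays and the other was above background on 0 of them, so this array gives no level for that isoform.

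The first question of the design is whether the lines differ at each age. At week 1, 14 of the 18 clones were lower in FL, with a median difference of -0.13, against 40.2% of all clones lower and a median of 0.05. The 14 include ATP6V1A in block 8 and ATP6V1D in block 23, which were not above background in FL. At week 3, 6 were lower and 12 higher in FL, with a median of 0.09, against a median near 0 (-0.00057) for all clones. Without the 3 arrays that stood apart these counts of lower clones were 13 and 8. In 2 of 18 clones, ATP6V1B2 and ATP6V1C1, the lines did not overlap at week 1, and 12.6% of all clones did not. At week 3 this was 0 of 18, against 2.21% of all clones. The counts at these 2 ages are descriptions only.

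At week 5 and week 7 the line difference was tested. No ATP6V clone passed at either age by limma, as 0% of all 7514 clones did at each age. At an unadjusted p under 0.05 lay 0 of the 18 clones at week 5, against 2.77% of all clones (208), and 2 of the 18 at week 7, against 3.23% (243). The 2 were ATP6V0D1 (-0.32, above) and ATP6V1D in block 2. The ATP6V1D clone was not above background on any of the 4 FL week 7 arrays, and no bound on its fold could be set, so its difference is not given. Medians over the 18 clones were -0.01 at week 5 and -0.04 at week 7. The lines did not overlap at week 5 in 2 clones, ATP6V1D in block 23 and ATP6V1E1 in block 1, each with only 2 FL values, against 6.33% of all clones. At week 7 this was 0 of 18, against 2.14%.

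For ATP6V1B2 the 95% interval of the line difference reached from -0.52 to 0.38 at week 5 and from -0.83 to 0.08 at week 7. For ATP6V1A in block 5 it reached from -0.19 to 0.40 at week 5 and from -0.38 to 0.21 at week 7. Differences inside these intervals are not excluded by the arrays. The block 8 clone gave 1.26 ± 0.83 (SE) at week 5, which was 0.19 without FL week 5 replicate 3, and 0.60 ± 0.83 (SE) at week 7.

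The other question is how levels change with age. Beside ATP6V1B2 at week 7 over week 1, 2 further clones had an unadjusted p under 0.05 in that comparison, ATP6V1C1 and ATP6V0E1 in block 14, which makes 3 of 18 against 19.4% of all clones. The median over the 18 clones was 0.08, against -0.02 for all clones. At week 3 over week 1, 0 of 18 clones passed, against 0.146% of all clones. An unadjusted p under 0.05 was reached by 4 of 18, against 12.5% of all: ATP6V1B2, ATP6V0B (0.62 ± 0.25, SE), and the 2 clones of ATP6V0E1. At week 5 over week 3, 0 of 18 passed, against 0.0133% of all, and 2 of 18 had an unadjusted p under 0.05, against 1.93% of all (145). At week 7 over week 5, 0 of 18 passed, against 0% of all, and 0 of 18 had an unadjusted p under 0.05, against 0.905% of all (68).

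**Figure D4:**
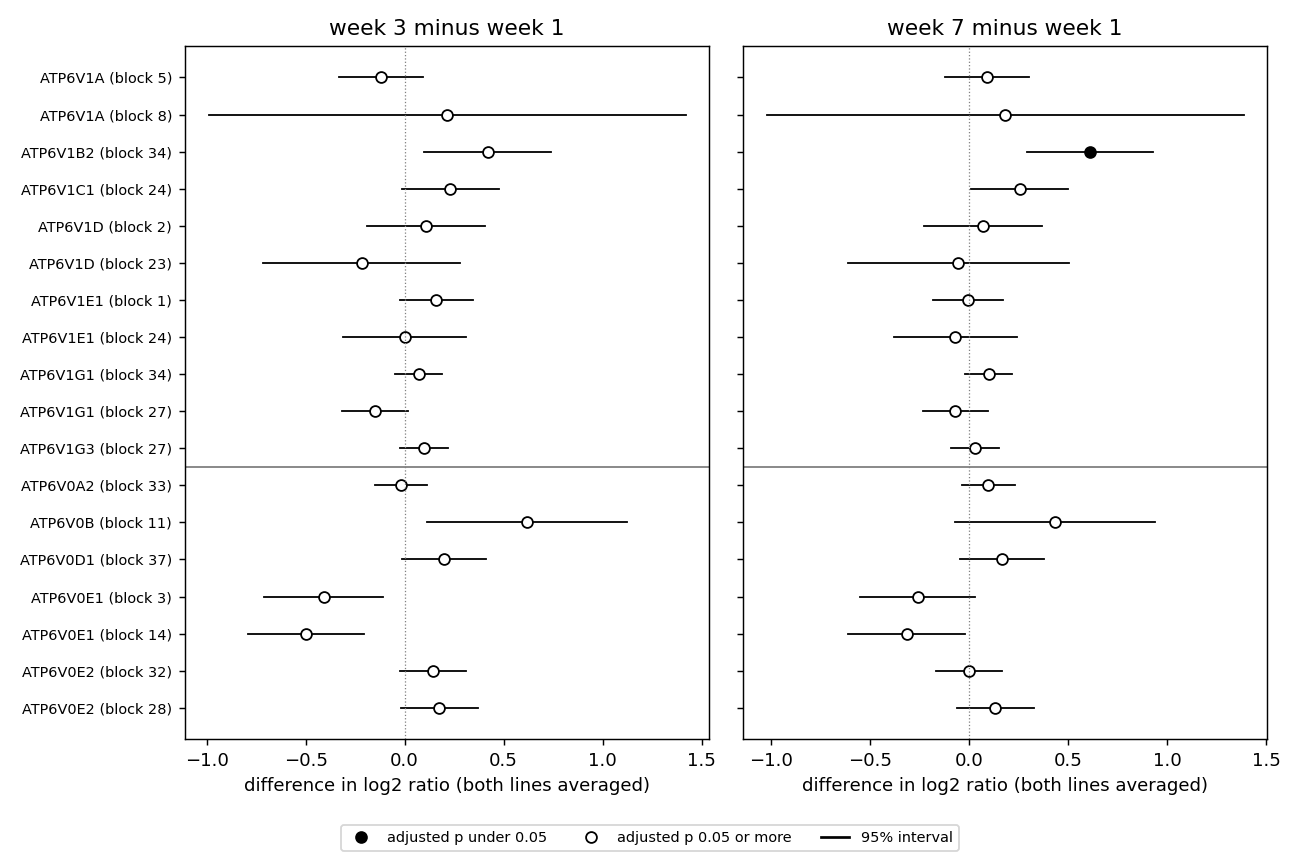
Differences between ages in log2 ratio, averaged over the fat line and lean line, for the 18 clones (V1 above the horizontal line, V0 below), with 95% intervals from limma. ATP6V1B2 at week 7 minus week 1 (0.61) is the only filled point, with an adjusted p under 0.05. That test shares the FL week 1 arrays with the line difference that drew attention to the gene. Both ATP6V0E1 clones lie left of 0 in both panels, week 3 minus week 1 and week 7 minus week 1.

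The 18 clones did not share 1 pattern. Over all 153 pairs of the 18 clones, correlations of the 8 group means ran from -0.91 to 0.98 with a median of 0.13. Clones of the same gene mostly differed as well. Their r was 0.19 for ATP6V1A, -0.27 for ATP6V1D, 0.34 for ATP6V1E1, 0.10 for ATP6V1G1, 0.39 for ATP6V0E2 and 0.91 for ATP6V0E1. Differences between subunits and between clones therefore cannot be told apart here. ATP6V1B2 was closest to ATP6V1C1 (0.98), ATP6V0D1 (0.92) and the ATP6V1D clone in block 2 (0.81), and farthest from the ATP6V0E1 clones (-0.66 and -0.64). The other ATP6V1D clone, in block 23, had r = -0.16 with ATP6V1B2. The block 2 clone was not above background on any FL week 7 array, a group that its r includes. The group means share 1 pool and the arrays that stood apart, and they include FL week 1, part of the difference that chose ATP6V1B2. These correlations are therefore descriptions. Without FL week 7 replicate 3, 3 of the 18 clones passed at week 7 over week 1, ATP6V1B2, ATP6V1C1 and ATP6V0D1 (0.29, adjusted p = 0.00846), while the count over all clones was 536, against 210 with it.

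Several neuronal markers were low on the arrays on which ATP6V1B2 was low. Of 14 neuronal genes listed, 7 were tested, each above background on 24 to 31 of 32 arrays. At week 1 their mean log2 ratio was between -0.50 and -0.15 on the 4 FL arrays, against 0.06 to 0.24 on the 4 LL arrays. The week 1 line differences were -1.05 for TUBB3 (neuronal tubulin), -0.74 for ENO2 (neuronal enolase), -0.60 for NEFL (neurofilament) and -0.59 for STMN2, -0.15 for GAP43 and -0.10 for SNAP25, with MAP2 at 0.05. The neuronal mean was also low in FL week 7 replicate 3 (-0.49, with the other 3 arrays of that group at 0.02 to 0.19) and in LL week 3 replicate 1 (-0.27). This was not particular to neuronal genes. On FL week 7 replicate 3 the oligodendrocyte mean was -0.50, with the other 3 at 0.06 to 0.17, and the astrocyte and ependymal mean was -0.23. On LL week 3 replicate 1 the astrocyte and ependymal mean was -0.37 and the oligodendrocyte mean 0.02. The 6 arrays with the lowest ATP6V1B2 values (the 4 of FL week 1 and these 2) were also the 6 with the lowest neuronal means, a number chosen after the values were seen. The 4 belong to the line difference by which ATP6V1B2 was chosen, and the 2 stood apart from the other arrays, so this match is a description.

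Ranges of the neuronal mean in the other groups were -0.03 to 0.22 in FL and -0.27 to 0.16 in LL at week 3, -0.07 to 0.09 in FL and 0.02 to 0.10 in LL at week 5, and -0.49 to 0.19 in FL and -0.01 to 0.15 in LL at week 7. Week 1 also differed in the dyes: the median log2(Cy3/Cy5) before normalization was -0.49 to 0.77 on FL arrays and 0.53 to 1.19 on LL arrays. With that value as a covariate, a setting chosen after the data were seen, the week 1 line difference of ATP6V1B2 was -0.65. Its rise by week 7 over week 1 was 0.55 (limma, adjusted p = 0.00673), where 440 of all clones passed, against 210 in the main fit. Both values share the FL week 1 arrays by which ATP6V1B2 was chosen, so this p-value is no separate support. The part of neuronal content and of array quality in the ATP6V1B2 differences was not tested.

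**Figure D5:**
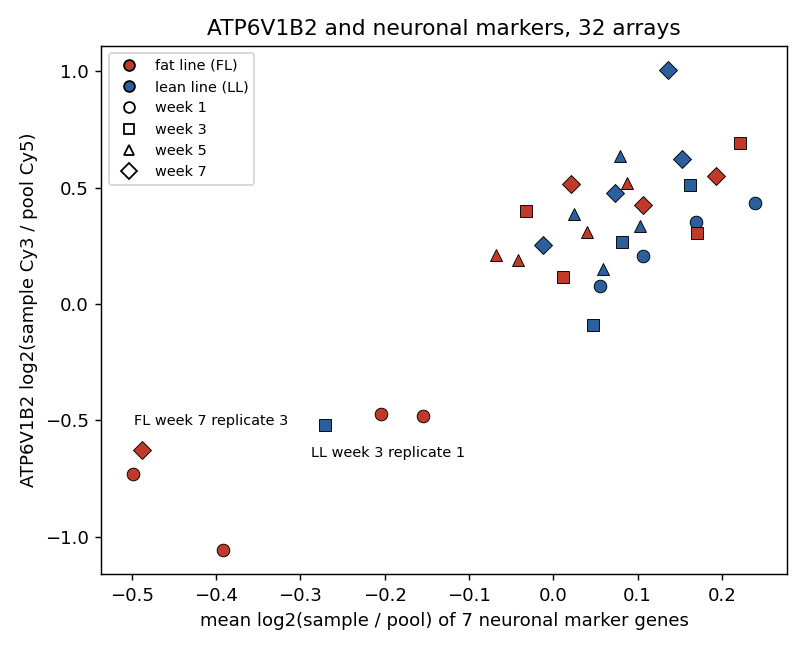
log2(sample/pool) of ATP6V1B2 (vertical) against the mean log2(sample/pool) of 7 neuronal marker genes (horizontal) on each of the 32 arrays; colour gives the line and shape the age. The 4 FL week 1 arrays, FL week 7 replicate 3 and LL week 3 replicate 1 lie at or below -0.47 for ATP6V1B2 and at or below -0.15 for the markers, and the other 26 arrays lie at or above -0.09 and -0.07. The FL week 1 arrays belong to the line difference by which ATP6V1B2 was chosen, so this split is a description.

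Of the other marker lists, the mean of 5 anterior pituitary genes was -0.17 to 0.14 in FL and -0.49 to -0.21 in LL at week 1, with no overlap. The genes did not move alike: the line differences were 0.93 for CGA (the hormone alpha subunit), 0.46 for GH (growth hormone), 0.12 for PRL, 0.05 for FSHB and -0.20 for POU1F1. Their part in the results was not tested. The mean of 3 microglial genes was 0.05 to 0.19 in FL and -0.20 to 0.26 in LL, and that of 2 red blood cell genes was 0.39 to 1.19 in FL and 0.34 to 0.67 in LL. The mean of 5 oligodendrocyte genes was -0.41 to 0.31 in FL and -0.10 to 0.45 in LL, and that of 5 astrocyte and ependymal genes was -0.30 to 0.30 in FL and -0.36 to 0.16 in LL. With age, HBBA, a beta globin of red blood cells, fell at week 7 relative to week 1 by 1.35 ± 0.15 (SE, limma, adjusted p = 6.52e-06), and no tested gene of the neuronal, oligodendrocyte, astrocyte and ependymal, microglial or pituitary lists passed there.

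By group means, the genes most like ATP6V1B2 among 3578 others were USP1 (r = 0.99), FEM1A (0.99), JUN (0.98), UBL3 (0.98) and SYNRG (0.98), and 126 genes exceeded 0.90. USP1 was at -1.23 in FL at week 1 and between -0.22 and 0.38 in the other groups. For ATP6V1A in block 5 they were EIF4E2 (0.90), MACF1 (0.89), R3HCC1 (0.89), AGO4 (0.88) and PCCB (0.88). For the block 8 clone they were FGFR2 (0.91), MXD1 (0.91), AGAP3 (0.90), USP10 (0.90) and TLE4 (0.90). Each r is over 8 group means taken against 1 pool and is a description.

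Genes that work with the pump were read from lists. Of 19 accessory, assembly and regulatory genes, 10 were on the array and 6 were tested. None passed any of the 6 tests, and their week 7 minus week 1 values ran from -0.21 (STK11IP) to 0.04 (NCOA7), with ATP6AP2, the prorenin receptor that binds the pump, at -0.06. Of 46 lysosomal membrane proteins and hydrolases, 21 were tested. At week 7 over week 1, where 2.79% of all clones passed, 0 rose and 1 fell: PPT1, a palmitoyl-protein thioesterase, by 0.41 ± 0.09 (SE, adjusted p = 0.0189). Values ran up to 0.29 for NPC2, and LAMP1 was at 0.27 ± 0.08 (SE, adjusted p = 0.0521). The list's median was 0.01, against -0.02 for all 3590 genes.

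Of 23 vesicle transporters and ion partners that use the proton gradient, 5 were tested and 0 passed. At week 7 over week 1 they ran from -0.13 (SLC17A5, the sialic acid exporter) to 0.07 (CLCN3), with SLC18A2, the vesicular monoamine transporter, at 0.04. Of 24 genes of lysosomal nutrient sensing, 11 were tested and 0 passed, with values from -0.74 ± 0.36 (SE) for FLCN to 0.48 ± 0.18 (SE) for RHEB, the GTPase that activates mTORC1. In the other 5 tests no gene of these 4 lists passed.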

How the data were processed

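Hypothalamic RNA of 2 chicken lines at 4 ages was hybridized to 32 two-colour cDNA arrays. Per the file headers, each array file holds, for every spot, raw Cy3 and Cy5 intensity, background, area, a quality letter and the authors' own log2 ratio; no source used here states the scanner, the image software or how that ratio was normalized. Raw intensity, a sum over the spot by its values, was divided by spot area. Background was corrected by normexp (offset 50), and arrays were normalized by loess (span 0.3, 4 iterations) in limma 3.58.1 under R 4.3.3. The authors' deposited log2 ratios served as an alternative. Spots with letters the headers call unsatisfactory (A, X, Y, Z; X on 6.91% and Z on 11.8% of spots) were left out. The letter S, which no header explains, was kept. Empty spots, in sub-row 20, set background at their 95 percentile on each array.

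Spots of 1 accession were averaged. A spot above background on fewer than 16 arrays was left out where another of its accession reached 16, a rule chosen after the data were seen. Clones above background on at least 3 of 4 arrays of a group, with 2 values in every group, were tested: 7514 clones, 2.83% of values missing. A clone that passed only through a bright group can be low in others. Limma fitted all 8 groups together, with p-values adjusted over all clones and 0.05 as the threshold. The replicates are the design text's biological replicates, and their numbers came from the array files. Clones were named by the array files' accessions, since the series table's values match the array files by place but not by name. All 15 symbols matched the current gene table.

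The members and gene lists were chosen with earlier results of these data known. Array-by-array values were given for ATP6V1A, ATP6V1B2, every ATP6V clone that passed a test and the clone with the smallest p in each test. The fit was tested on simulated data. The alternatives changed background, normalization, filters, spots, blocks, weights, covariates and arrays. No sequences are printed.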

Additional observations from a re-analysis of the deposited data

Results flagged for a closer look

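Among 127 groups of 4 values of the 18 clones, 10 held 1 array far from the other 3, a gap that chance gives in about 1 group in 20. FL week 7 replicate 3 was such an array for 3 subunits. On this array 33.6% of all clones with 4 values were the lowest of their group and 38.9% the highest. Of 17 ATP6V clones with 4 values, 8 were lowest there and 5 highest. ATP6V1B2 read -0.63 there, with the other 3 arrays at 0.42 to 0.55. ATP6V1C1 read -0.55, with the others at 0.37 to 0.42, and ATP6V0D1 read -0.65, with the others at 0.28 to 0.41. The neuronal marker mean was -0.49 and the oligodendrocyte marker mean -0.50 on the same array, and their part in these values was not tested.

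ATP6V1A in block 8 read 2.64 in FL week 5 replicate 3, with the others at -1.79 to -1.51, and 0.68 in LL week 3 replicate 2, with the others at -2.14 to -1.90. ATP6V0E2 was high on FL week 5 replicate 1 in both clones, at 0.13 in block 32 (others -0.18 to -0.13) and 0.12 in block 28 (others -0.23). ATP6V1C1 read 0.67 in LL week 7 replicate 2 (others 0.28 to 0.30). ATP6V1G1 in block 34 read 0.14 in FL week 3 replicate 4 (others -0.18 to -0.16), and ATP6V0E1 in block 3 read -0.51 in FL week 3 replicate 3 (others -0.02 to 0.06).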

How the results depend on the processing

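Over 47 alternative settings, 6624 values of single ATP6V clones were recomputed: 6589 kept their call or, with none, moved by less than the spread between arrays, 13 moved further, 13 came to pass, 9 ceased to pass, and 0 calls changed sign. Many of these values could not move, since leaving out an array of a group not compared leaves a difference unchanged. A value could also change sign within that spread, as ATP6V1A in block 8 did at week 3 (-0.30, and 0.36 without LL week 3 replicate 2). The main fit held 1 ATP6V call, so the count of calls that changed sign says little. ATP6V clones passing at week 7 over week 1 (1 of 18, beside 210 of all clones) were 2 without background subtraction (528 of all), 2 of 13 from the authors' log2 ratios (311 of all), 4 with array weights (1065 of all), 3 without the 3 arrays that stood apart (492 of all) and 0 with only the arrays compared (31 of all). At week 3 over week 1 (0) they were 2 with array weights (209 of all clones) and 1 without those 3 arrays (58 of all). All clones passing at week 7 over week 1 (210) were 528 without background subtraction, 1065 with array weights, 440 with the Cy3/Cy5 ratio as covariate, 492 without the 3 arrays and 31 with only the arrays compared. At week 3 over week 1 (11) they were 24 without background subtraction, with print-tip loess or with signal as covariate, 17 with no filter, 5 with the stricter filter, 209 with array weights, 42 with the Cy3/Cy5 covariate, 58 without the 3 arrays and 2 with only the arrays compared. At week 5 over week 3 (1) they were 2 with scaling or the Cy3/Cy5 covariate and 0 without background subtraction, with print-tip loess, the authors' ratios, no filter, array weights, spots apart, all spots kept, without the 3 arrays or with only the arrays compared. Line differences passing at week 5 (0) were 2 with array weights and 1 with all spots kept, and at week 7 (0) 5 with array weights and 1 with no filter. The cause was not tested. Leaving out 1 array gave 60 (without FL week 7 replicate 1) to 536 clones (without FL week 7 replicate 3) at week 7 over week 1, 5 (without FL week 1 replicate 2) to 92 (without FL week 1 replicate 1) at week 3 over week 1, 0 to 2 at week 5 over week 3 and 0 for the other 3 tests; ATP6V clones numbered 0 to 3 at week 7 over week 1, 0 to 1 at week 3 over week 1 and 0 elsewhere.

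The replicate numbers were not taken to pair the arrays in the main fit, since what same-numbered arrays share is not stated. Of 112 same-numbered pairs, 54 had a correlation of their deviations over 0.1 (lowest -0.47, means per number 0.02 to 0.17), which cannot decide whether they share a batch. In every group the median Cy3 over background was lower on replicate 1 than on replicate 4. It was 4.34, 5.25, 6.17 and 8.45 on LL week 1 replicates 1 to 4. The rise was not steady in every group, with 4.32, 5.09, 3.79 and 6.73 in FL week 7. As a hint from the data and not the design, 16 of 32 arrays correlated best with their own number. With the replicate block, 320 clones passed at week 7 over week 1, 24 at week 3 over week 1 and 0 at week 5 over week 3, and 1 ATP6V clone, ATP6V1B2, passed at week 7 over week 1 (adjusted p = 0.0249). Over all settings, adjusted p-values for ATP6V1B2 at week 7 over week 1 ran from 0.000713 to 0.129. The Cy3/Cy5 covariate, leaving out the 3 arrays, and the plain average of spots, where ATP6V1B2 was 0.52 higher (adjusted p = 0.0268), were chosen after the data were seen. Signal over background limits the dim clones, ATP6V1A in block 8 and ATP6V1D in block 23 among them.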
